A study of Rattus norvegicus with 8 samples.

Results

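The mRNA decay regulators of the ZFP36, BTG and TOB families were followed in rat whole blood. The members were the 7 genes named Zfp36, Zfp36l1, Zfp36l2, Btg1, Btg2, Tob1 and Tob2, out of 17446 genes counted, and all 7 had counts and passed the filter on low counts in each comparison. They were chosen by gene family, with Zfp36l2 known to be lower after treatment in the AngII model, so the AngII values below are a description with no test. RNA was sequenced in 8 libraries of wild type Wistar rats, which were males aged 12 to 14 weeks, with 2 libraries per group. In the AngII model, osmotic minipumps delivered human angiotensin II at 0.4 mg/kg/day, with blood drawn in week 1, before Chios mastic gum (CMG), and in week 5, when CMG had been given for 4 weeks at 220 mg/kg. The pumps were of a type made to last 4 weeks. In the DOCA–HS model, deoxycorticosterone acetate (DOCA) at 100 mg/kg was combined with 0.9% NaCl and 1% KCl, with blood drawn in week 3 and in week 7, once CMG had likewise been given for 4 weeks. The blood was collected in heparin in all groups. The labels give cardiac puncture, whereas the study's methods describe repeated sampling of the rats, so it is not clear whether a rat gave blood at both times. Groups follow the titles and the treatment of each sample, which name the gum only after treatment, although a protocol field names it for all 8 samples. No untreated or vehicle library was analysed here, so CMG and the further weeks of each model cannot be told apart.

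ZFP36 proteins, also called tristetraprolin and BRF proteins, bind AU-rich elements in the 3′ ends of short-lived mRNAs and recruit the CCR4-NOT deadenylase, which removes the poly(A) tail. BTG and TOB proteins bind the CAF1 nuclease subunits of CCR4-NOT, and TOB proteins also bind the poly(A)-binding protein. In leukocytes, ZFP36 proteins limit cytokine mRNAs, and ZFP36L1, ZFP36L2, BTG1 and BTG2 are known for keeping lymphocytes quiescent. ZFP36 and BTG2 are also known as early response genes, which are induced within a short time of a stimulus.

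The libraries held 4149104 to 13205565 counts, of which hemoglobin genes took 61.9% to 84.3%. Levels are given as normalized CPM, the counts relative to the library total scaled with the TMM factor over the 8 libraries. The second DOCA–HS library after CMG stood apart, with 84.3% hemoglobin counts, 2686 genes with at least 10 counts against 6097 to 8280 in the other libraries, and 651764 counts outside hemoglobin. In that library 3 counts correspond to 2.11 normalized CPM, so the members' fold changes in the DOCA–HS model are given with and without it. In bulk blood, fewer cells of a type and less RNA per cell cannot be told apart.

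Zfp36l2, Btg2 and Tob1 were the members lower in both AngII libraries after CMG, and their promoters are shown beside those of Tob2, which was higher in both, and Zfp36, whose libraries overlapped. Each is the 250 bases upstream of the gene start in RefSeq (GRCr8), read 5′ to 3′ on the strand of the gene, and all 7 members matched an entry. Capitals mark the matches, on either strand, to TGACGTCA (cAMP response element), TGAGTCA (AP-1 site), GCGGGGGCG (EGR site), the CCAAT box, GGGCGG (GC box of SP1) and the TATAAA box. The regions lie at chr6:16242372-16242621 for Zfp36l2 and chr10:79659743-79659992 for Tob1 on the plus strand, and on the minus strand at chr13:48087691-48087940 for Btg2, chr1:92799109-92799358 for Zfp36 and chr7:115251564-115251813 for Tob2.
Zfp36l2: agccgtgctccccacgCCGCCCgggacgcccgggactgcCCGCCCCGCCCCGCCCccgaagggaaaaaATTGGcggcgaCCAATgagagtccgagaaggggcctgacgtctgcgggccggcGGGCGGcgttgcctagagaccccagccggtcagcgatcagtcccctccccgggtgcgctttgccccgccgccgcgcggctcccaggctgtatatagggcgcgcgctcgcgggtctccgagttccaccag
Btg2: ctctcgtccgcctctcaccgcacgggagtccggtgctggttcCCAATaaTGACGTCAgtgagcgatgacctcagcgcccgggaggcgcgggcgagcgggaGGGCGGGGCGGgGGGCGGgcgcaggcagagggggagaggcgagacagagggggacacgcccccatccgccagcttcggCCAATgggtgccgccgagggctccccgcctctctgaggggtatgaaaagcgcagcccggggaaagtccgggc
Tob1: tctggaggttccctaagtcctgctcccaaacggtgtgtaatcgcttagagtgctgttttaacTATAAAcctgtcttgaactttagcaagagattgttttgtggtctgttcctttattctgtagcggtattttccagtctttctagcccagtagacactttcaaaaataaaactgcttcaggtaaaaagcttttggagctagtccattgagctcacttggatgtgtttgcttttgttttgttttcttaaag
Zfp36: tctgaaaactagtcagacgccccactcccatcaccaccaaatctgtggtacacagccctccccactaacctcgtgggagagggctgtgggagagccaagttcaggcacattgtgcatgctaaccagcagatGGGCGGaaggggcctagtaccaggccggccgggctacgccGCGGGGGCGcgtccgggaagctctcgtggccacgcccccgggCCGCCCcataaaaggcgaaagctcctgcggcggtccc
Tob2: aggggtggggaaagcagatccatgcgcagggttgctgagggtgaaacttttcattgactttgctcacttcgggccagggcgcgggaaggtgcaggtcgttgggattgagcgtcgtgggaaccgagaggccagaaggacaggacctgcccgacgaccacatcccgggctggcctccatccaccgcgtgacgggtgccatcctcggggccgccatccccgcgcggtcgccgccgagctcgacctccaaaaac

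The Btg2 promoter held the single full cAMP response element of the family, 201 bases before the start, a motif present in 1.59% of 33469 upstream regions of the same length. The Zfp36 promoter held the single EGR match, which 2.45% of the regions hold. CCAAT was found in 3 of 7 members (Zfp36l1, Zfp36l2 and Btg2) against 34.0% of all regions, and GGGCGG in 4 of 7 (Zfp36, Zfp36l2, Btg1 and Btg2) against 30.5%. TATAAA was found in Zfp36l1, where it overlaps the CCAAT match, and in Tob1, against 12.9% of the regions. TGAGTCA, held by 4.05% of the regions, was in none of the 7 windows, and the Tob2 window held none of these motifs. The GC content was 73.6% for Zfp36l2, 72.0% for Btg2, 68.4% for Btg1 and 65.2% for both Zfp36 and Tob2, above the median of 51.2% over all regions, while Zfp36l1 with 50.4% and Tob1 with 39.2% lay below it. None of these motifs was found in all 3 of Zfp36l2, Btg2 and Tob1. A match describes the letters of the window only, and whether transcription in blood begins at these RefSeq starts was not tested.

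The first question was how the ZFP36 genes differed between blood taken after and before CMG in the AngII model. Zfp36l2, which encodes BRF2, measured 8.10 and 6.25 normalized CPM in the 2 AngII libraries before CMG (103 and 37 counts) and 2.4 and 2.00 after CMG (15 and 27 counts). Both libraries after CMG thus lay below both libraries before it. The fitted log2 fold change was −1.72 (SE 0.33), which is a level 0.304 times that before CMG. Zfp36l2 was the single member past the criterion of the study, which asks for a log2 fold change above 1.5 or below −1.5 and an unadjusted p of 0.05 or less. Of all 7201 genes tested, 1.24% passed this criterion, 0.903% higher and 0.333% lower.

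Zfp36 and Zfp36l1 did not share this pattern. Zfp36, which encodes tristetraprolin, measured 68.5 and 53.9 normalized CPM before CMG, then 71.7 and 60.3, with a log2 fold change of 0.13 (SE 0.33). Zfp36l1, which encodes BRF1, measured 20.3 and 17.4 before CMG, then 17.6 and 31.4, with a log2 fold change of 0.40 (SE 0.36). The libraries before and after CMG overlapped for both genes.

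In the DOCA–HS model, Zfp36l2 was low at both times. It measured 2.83 and 2.34 normalized CPM before CMG (51 and 22 counts), and 2.61 (34 counts) and 0 after it. The library with no count was the shallow one, and 0 counts there allow a level of up to 2.11 normalized CPM, for counting error only. The log2 fold change was −0.35 (SE 0.67) with both libraries after CMG and 0.01 (SE 0.44) without the shallow one. The mean was 7.17 ± 1.31 (SD, n = 2) for AngII before CMG, whose libraries lay above all 6 others. It was 2.58 ± 0.345 for DOCA–HS before, 2.20 ± 0.285 for AngII after and 1.31 ± 1.85 for DOCA–HS after CMG. These 3 groups overlapped and have no order beyond their spread, as the last mean rests on the 0 of the shallow library.

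Zfp36 measured 72.3 and 56.4 normalized CPM before CMG in the DOCA–HS model, and 48.4 and 21.8 after it. The lower value came from the shallow library, with 31 counts. The log2 fold change was −0.85 (SE 0.54, adjusted p = 0.997 by edgeR's quasi-likelihood test) and −0.40 (SE 0.38, adjusted p = 0.855) without that library. When the other library after CMG was left out instead, so that the shallow one stood alone, it was −1.56 (SE 0.40). The median of all genes in that fit was −0.37. Either fit with 1 library after CMG takes its spread within groups from the 2 libraries before CMG and assumes that the lone library varies likewise. Zfp36l1 measured 21.5 and 15 before CMG and 17.6 and 22.5 after it, which overlapped, with a log2 fold change of 0.12 (SE 0.46) and of −0.05 (SE 0.32) without the shallow library.

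**Figure D1:**
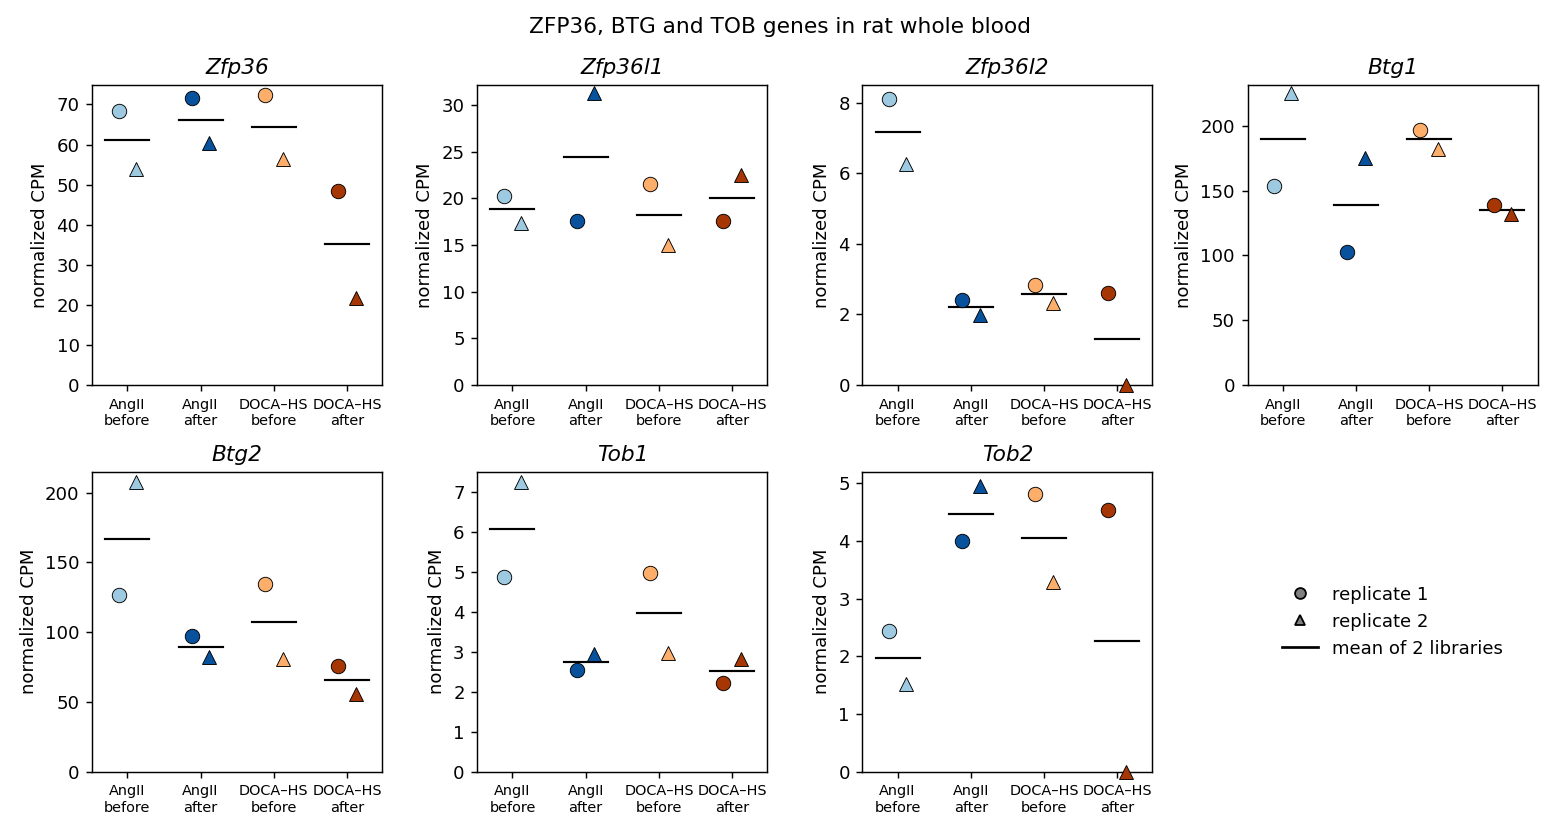
Normalized CPM of the 7 genes in each of the 8 libraries, by model and time, each panel from 0. Circles and triangles are replicates 1 and 2, and lines are the means of the 2 libraries. Zfp36l2 stands at 8.10 and 6.25 in the AngII libraries before CMG and at 2.83 or less in the others.

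The share of each gene within its family does not depend on how a library is scaled, as all members of a family are counted in the same library. These shares compare libraries, not genes, since counts also grow with transcript length, and their exact (Clopper-Pearson) 95% binomial intervals, given in parentheses, cover counting error only. Zfp36l2 made up 8.36% (6.88 to 10.05) and 8.06% (5.74 to 10.9) of the counts of the 3 ZFP36 genes in the AngII libraries before CMG. After CMG the share was 2.62% (1.47 to 4.28) and 2.13% (1.41 to 3.09), with intervals below those of both libraries before CMG. The DOCA–HS libraries gave 2.92% (2.18 to 3.82) and 3.17% (2.00 to 4.76) before CMG. After CMG it was 3.81% (2.65 to 5.28) in one library and 0% (0 to 5.69), or 0 of 63 counts, in the other. These shares rest on the same counts as the levels above, by which Zfp36l2 was chosen, and are no further evidence.

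The BTG genes are antiproliferative cofactors, of which Btg2 is also a p53 target. Btg2 measured 127 and 207 normalized CPM in the AngII libraries before CMG and 97.4 and 82.0 after it. Both libraries after CMG were lower than both before it, and the log2 fold change was −0.87 (SE 0.38), short of the criterion, and ranged from −1.19 to −0.53 with 1 library left out. Btg1 measured 154 and 226 before CMG, and its later values of 103 and 175 overlapped these, with a log2 fold change of −0.42 (SE 0.41), or −0.86 to −0.14 with 1 library left out.

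Btg2 in the DOCA–HS model measured 134 and 80.8 normalized CPM before CMG and 76.0 and 55.5 after it. Its log2 fold change was −0.70 (SE 0.53, adjusted p = 0.997, edgeR), and −0.49 (SE 0.41, adjusted p = 0.818) without the shallow library. It was −0.29 without the first library before CMG and −1.01 without the second. Btg1 measured 197 and 182 before CMG and 139 and 132 after it. Its log2 fold change was −0.48 (SE 0.52, adjusted p = 0.997, edgeR) with the shallow library and −0.44 (SE 0.45, adjusted p = 0.879) without it. Both genes were lower in both libraries after CMG, but neither difference passed the test.

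The share of Btg2 in the counts of Btg1 and Btg2 varied between replicates. It was 45.2% and 47.9% in the AngII libraries before CMG and 48.6% and 31.9% after it, so the groups overlapped. The DOCA–HS libraries gave 40.6% and 30.7% before CMG and 35.4% and 29.6% after it. For Btg3, a related gene, the log2 fold change was −0.79 (SE 0.37) for AngII and 0.06 for DOCA–HS, and Btg4 had no count.

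Tob1 and Tob2, which encode adaptors between CCR4-NOT and the poly(A)-binding protein, lay in opposite order in the AngII model. Tob1 measured 4.87 and 7.26 normalized CPM before CMG (62 and 43 counts) and 2.56 and 2.96 after it (16 and 40 counts), with a log2 fold change of −1.07 (SE 0.34). Tob2 measured 2.44 and 1.52 before CMG (31 and 9 counts) and 4.0 and 4.96 after it (25 and 67 counts), with a log2 fold change of 1.15 (SE 0.38). Neither gene's groups overlapped. Tob2 made up 33.3% (23.9 to 43.9) and 17.3% (8.23 to 30.3) of the counts of the 2 TOB genes before CMG, and 61% (44.5 to 75.8) and 62.6% (52.7 to 71.8) after it.

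The share of Tob2 in the DOCA–HS libraries was 49.2% and 52.5% before CMG and 67.0% (56.2 to 76.7) in the first library after it. The shallow library held 4 counts of Tob1 and 0 of Tob2, too few for a share. Tob1 measured 4.99 and 2.97 normalized CPM before CMG and 2.23 and 2.81 after it, with a log2 fold change of −0.76 (SE 0.52, adjusted p = 0.997, edgeR) and of −0.86 (SE 0.42, adjusted p = 0.469) without the shallow library. It was −0.29 without the first library before CMG and −1.01 without the second. Tob2 measured 4.82 and 3.29 before CMG, and 4.54 and 0 after it. Its log2 fold change was −0.32 (SE 0.70) with the shallow library and 0.14 (SE 0.36) without it, so its direction rested on that library.

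**Figure D2:**
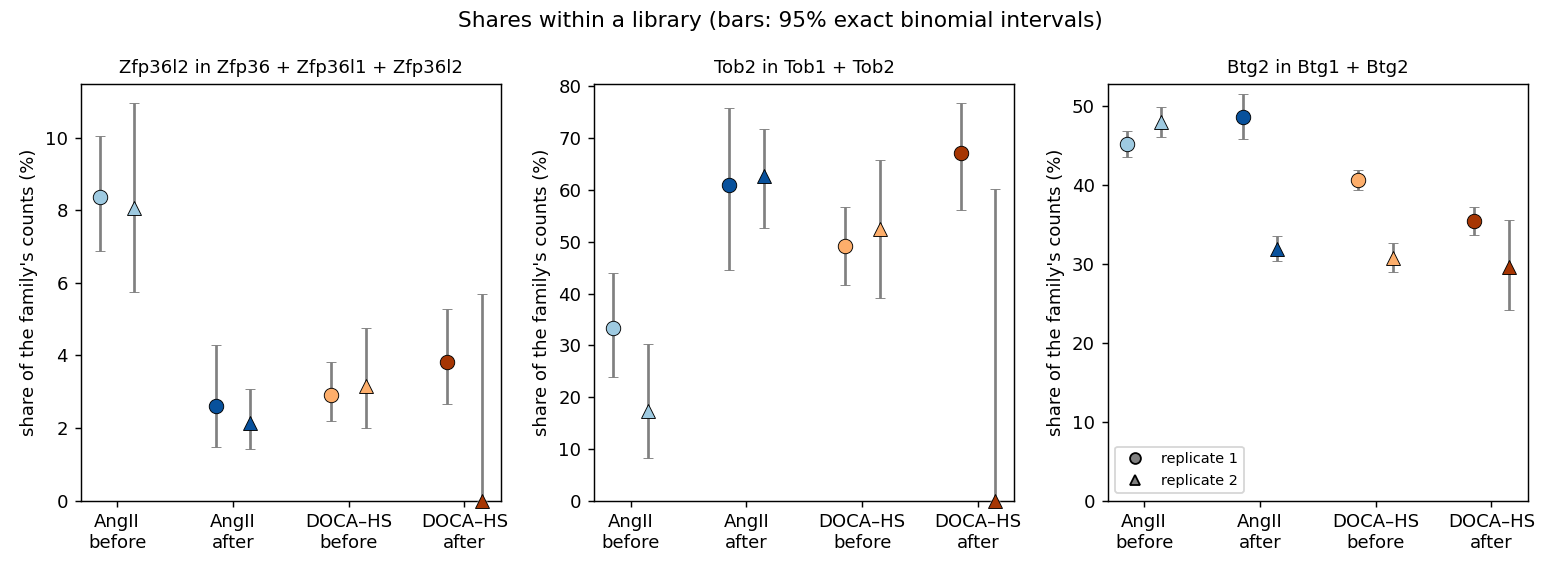
Share of Zfp36l2, Tob2 and Btg2 in the counts of their own family, in percent, in each of the 8 libraries. Circles and triangles are replicates 1 and 2, and bars are exact 95% binomial intervals. The AngII libraries before CMG stand at 8.36% and 8.06% for Zfp36l2 and at 33.3% and 17.3% for Tob2, and the points at 0 belong to the shallow library, where Tob1 and Tob2 had 4 counts together.

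Counted over the 7 members in the AngII model, 3 were lower in both libraries after CMG (Zfp36l2, Btg2 and Tob1) and 1 was higher (Tob2). Of all genes tested, 18.5% were lower and 21.3% higher in both libraries. The median log2 fold change was −0.42 over the members and −0.01 over all genes. These counts include the contrast by which Zfp36l2 was chosen, so nothing is read from them. Scaling by total counts moved the median of all genes to 0.36. Relative to that median Zfp36l2 lay at −1.72 and Tob2 at 1.17, against −1.71 and 1.16 with TMM. On that scale as it stands the log2 fold change was −1.36 for Zfp36l2, which ended its call, and 1.53 for Tob2, which then passed the criterion.

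For the DOCA–HS model, 0 of 7 members passed the criterion, against 2.05% of the 7720 genes tested, 1.79% higher and 0.259% lower. With all 4 libraries, an unadjusted p of 0.05 or less was found for 0 of 7, against 3.17% of all genes. DESeq2 and limma-voom also gave 0 of 7 by either count. The adjusted p was 0.997 for each member (edgeR's quasi-likelihood test), with log2 fold changes from −0.85 for Zfp36 to 0.12 for Zfp36l1. Zfp36, Btg1, Btg2 and Tob1 were lower in both libraries after CMG, 4 of 7, against 21.1% of all genes, and 0 were higher, against 14.7%. Scaled by total counts, the libraries of Zfp36 and Btg2 overlapped. The median was −0.48 over the members and −0.04 over all genes. Without the shallow library these medians were −0.40 and −0.02, with Tob1 the lowest member at −0.86 (SE 0.42). That fit has 1 library after CMG, so no count of members is read from it. With 2 libraries against 2, an exact permutation test of a single gene cannot give a p below 0.333.

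**Figure D3:**
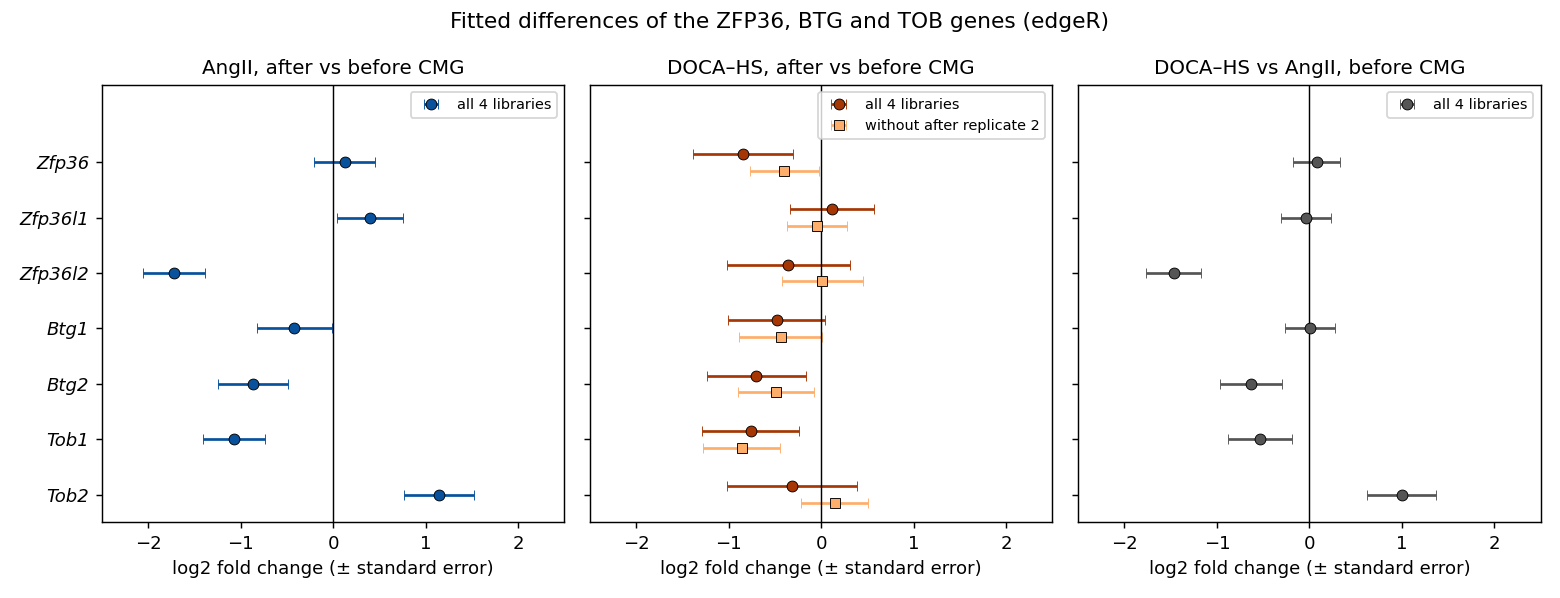
Log2 fold change with its standard error for the 7 genes, in the AngII model after against before CMG, in the DOCA–HS model after against before CMG (circles with all 4 libraries, squares without the shallow one), and in DOCA–HS against AngII before CMG. Zfp36l2 lies at −1.72 in the first panel and at −1.47 in the third, where Tob2 lies at 1.15 and 1.00.

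The models were also compared before CMG, where model, sampling week and any batch cannot be told apart and where the AngII libraries are those of the contrast above. Zfp36l2 was lower in the DOCA–HS model by a log2 difference of −1.47 (SE 0.30), and Tob2 was higher by 1.00 (SE 0.38). The libraries did not overlap for these 2 genes, 1 lower and 1 higher, against 22.0% and 24.3% of all genes tested. By total counts Zfp36l2 did overlap. That scaling moved the median of all genes from 0.06 to 0.84, and the log2 difference of Zfp36l2 was then −0.67, or −1.51 relative to that median. By total counts outside hemoglobin the median was 0.76, and Zfp36l2 was lower without overlap. Btg1 was higher without overlap under both of these scalings, and Zfp36 and Zfp36l1 only outside hemoglobin. The cause was not tested. Zfp36, Zfp36l1 and Btg1 differed by 0.08 (SE 0.26), −0.04 (SE 0.27) and 0.00 (SE 0.27), Btg2 by −0.63 (SE 0.34) and Tob1 by −0.53 (SE 0.35). Over the alternative settings the sign held for Zfp36l2 and Tob2 and not for the other 5 members, with Btg2 from −1.03 to 0.28 and Tob1 from −0.98 to 0.32. Of the 7 members 0 passed the criterion, against 0.79% of all genes. By DESeq2 Zfp36l2 lay at −1.51 and passed, and the share of all genes in that fit is given with the processing.

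The change after CMG in the DOCA–HS model minus that in the AngII model was fitted over all 8 libraries. It was 1.39 (SE 0.76) for Zfp36l2 and −1.43 (SE 0.86) for Tob2 on the log2 scale. Both values varied with the DOCA–HS library left out. The difference was 1.75 for Zfp36l2 and −0.98 for Tob2 without the shallow library. With that library alone after CMG it was −5.90 for Zfp36l2 and −9.42 for Tob2, and those fits, against a group at 0, depend on the prior count. Under total counts the difference was 0.37 for Zfp36l2 and −2.45 for Tob2, where the median of all genes was −1.21. For Zfp36 the difference was −0.95 (SE 0.64), −0.51 without the shallow library, −1.67 with that library alone after CMG and −1.83 under total counts. For the other 4 members it ranged from −0.27 for Zfp36l1 to 0.33 for Tob1. The sign held for Zfp36 and Tob2 over the alternative settings and not for the other 5 members. Since the AngII values of this difference include those that chose Zfp36l2, it is given as a description.

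Genes whose levels ran most like those of Zfp36l2 and Btg2 were sought among 3619 genes with a mean of at least 50 counts. Likeness was the root mean square difference of log2 CPM after subtracting each gene's mean, over the libraries. The nearest genes share the pattern by this choice, so their values are no further evidence for it. Over all 8 libraries the nearest genes to Zfp36l2 were Bicdl1 (0.512), Git1, Cyth1, Tbc1d20 and Jak2 (0.619), against a median of 1.52 over all candidates. All 5 had 0 to 2 counts in the shallow library, and their log2 fold changes for AngII ranged from −0.58 to −0.35. This likeness therefore turned mainly on the values in that library. For Btg2 the nearest genes were Ppp1r2 (0.201), App, Trim35, Tpmt and Vamp2 (0.270), against a median of 0.671.

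Over the 7 libraries other than the shallow one, a choice made after the values were seen, the genes nearest to Zfp36l2 were Nfkbia (0.225), Nfkbiz (0.340), Uhmk1 (0.347), Zc3h12a (0.348) and Cd69 (0.355), against a median of 0.710. Nfkbia encodes the NF-kB inhibitor IκBα and Nfkbiz the atypical nuclear IκB protein IκBζ, Zc3h12a encodes the RNase regnase-1, which cleaves stem-loops of inflammatory mRNAs, and Cd69 is an early activation antigen of lymphocytes. Nfkbia measured 63.7 and 61.3 normalized CPM in the AngII libraries before CMG and 19.5 and 22.3 after it. For DOCA–HS it measured 23.7 and 22.8 before CMG, then 17.3 and 25.3. The nearest to Btg2 were Junb (0.121), an AP-1 subunit, RGD1308134 (0.185), Ppp1r2 (0.203), Dus2 (0.210) and Cdk5rap2 (0.214), against a median of 0.531. For AngII, Junb measured 95.8 and 166 before and 79.7 and 56.9 after CMG. For DOCA–HS, Junb measured 91.6 and 52.2 before CMG, then 60.0 and 71.0.

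**Figure D4:**
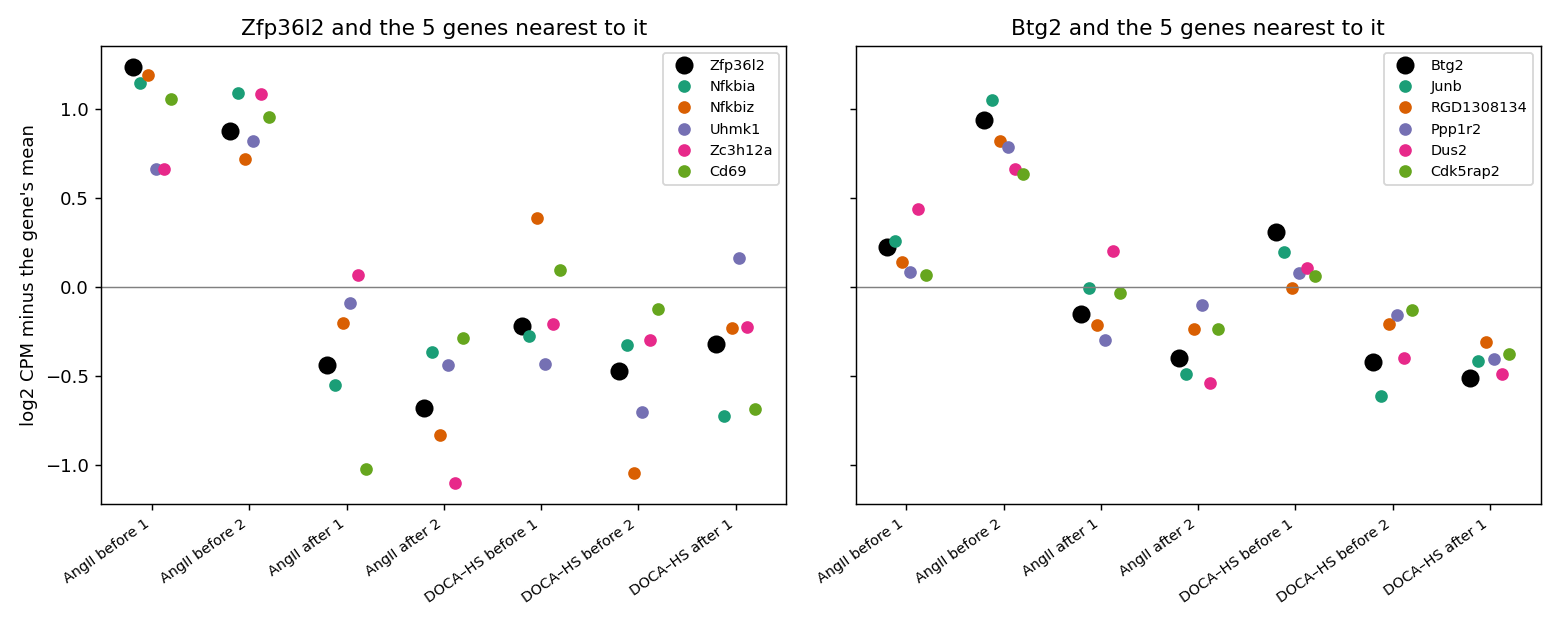
Log2 CPM minus the mean of each gene over 7 libraries, without the shallow one, for Zfp36l2 (left) and Btg2 (right) in black and their 5 nearest genes in colour. On the left all 6 genes lie above 0 in both AngII libraries before CMG, which follows from choosing the 5 for likeness to Zfp36l2.

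The partners and targets of these proteins were examined through 6 lists of 102 genes, of which 92 were among the genes counted. The AngII fit tested 70, and 1 passed the criterion as higher and 1 as lower. The DOCA–HS fit tested 73, and 1 passed as higher and 0 as lower. These are 2.86% and 1.37%, against 1.24% and 2.05% of all genes.

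The 3 lists of deadenylation, decapping and exosome genes had no gene past the criterion in either model by edgeR with all 4 libraries. By DESeq2, Exosc5 passed in the DOCA–HS model. Among the CCR4-NOT and PAN genes 15 were tested, with a median log2 fold change of 0.24 for AngII and −0.09 for DOCA–HS, and 0 had an unadjusted p of at most 0.05 (edgeR). Pabpc1, the poly(A)-binding protein gene and the most abundant of them, had a log2 fold change of −0.44 (SE 0.48) for AngII. For DOCA–HS that of Pabpc1 was −0.22 (SE 0.82), −1.12 without the shallow library, 0.32 with that library alone after CMG and −1.34 under total counts. For decapping and 5′ decay, 13 and 14 genes were tested, with medians of −0.15 and 0.11, and Lsm14a, the most abundant, had log2 fold changes of −0.16 (SE 0.29) and −0.55 (SE 0.50), the latter −0.15 without the shallow library and −1.33 with that library alone after CMG. For the exosome and 3′ decay, 9 and 11 were tested, with medians of −0.06 and −0.36. Exosc5, an exosome core subunit and the most abundant gene of that list, measured 38.4 and 57.4 normalized CPM before CMG in the DOCA–HS model, and 48.5 and 217 after it. The high value was that of the shallow library. Its log2 fold change was 1.47 (SE 0.73) by edgeR, 1.56 by DESeq2, 0.03 without the shallow library, 2.18 with that library alone after CMG and 0.06 under total counts. Under total counts the medians of these 3 lists were 0.64, 0.27 and 0.34 for AngII and −0.89, −0.65 and −1.04 for DOCA–HS, where the median of all genes was 0.36 and −0.76.

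Of the other proteins that bind AU-rich elements or stem-loops, 12 were tested in each model, with medians of −0.04 for AngII and 0.02 for DOCA–HS. Elavl1, which encodes the mRNA-stabilizing protein HuR, passed the criterion in the DOCA–HS model with a log2 fold change of 1.89 (SE 0.80). It measured 4.43 and 5.63 normalized CPM before CMG, and 5.30 and 35.2 after it. The high value was that of the shallow library, and without it the log2 fold change was 0.10. Under total counts it was 0.41, which also ended the call. It also did not pass when either DOCA–HS library before CMG was left out, with log2 fold changes of 1.78 and 2.14. Zc3h12a had a log2 fold change of −1.35 (SE 0.43) in the AngII model, short of the criterion.

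Kinases, phosphatases and 14-3-3 proteins that act on ZFP36 had medians of 0.34 for AngII (10 tested) and −0.10 for DOCA–HS (11 tested). Ywhag, a 14-3-3 gene, measured 1.41 and 1.35 normalized CPM before and 4.0 and 3.99 after CMG for AngII, which gave a log2 fold change of 1.53 (SE 0.37). It fell short of the criterion without the second library before CMG (1.46) or the first after it (1.47). Ywhag in the DOCA–HS libraries measured 2.33 and 2.02 before CMG, and 3.46 and 3.52 after it.

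Among 25 mRNAs described as targets of ZFP36 proteins, 4 had no count, and 11 were tested for AngII and 10 for DOCA–HS, with medians of −0.21 and −0.41. Cxcl2, a neutrophil-attracting chemokine, measured 9.35 and 12.2 normalized CPM before CMG in the AngII libraries, and 4.32 and 1.26 later. Its log2 fold change was −2.02 (SE 0.52), −3.11 without the first library after CMG, and −1.28 without the second, which ended the call. Cxcl2 in the DOCA–HS libraries measured 1.33 and 0.425 normalized CPM before CMG, then 0.615 in the first library and a single count in the shallow one, below its floor of 3 counts, and was too low to be tested. In the AngII model Myc had a log2 fold change of −0.87 (SE 0.35) and Bcl6 one of 1.29 (SE 0.29), and neither passed the criterion.

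The list medians moved with single libraries and are descriptions only. With 1 library left out, the AngII median ranged from −0.02 to 0.23 for CCR4-NOT and PAN, where it was negative without the second library before CMG, and from 0.21 to 0.38 for the kinases, phosphatases and 14-3-3 proteins. It ranged from −0.24 to 0.19 for decapping and from −0.19 to 0.29 for the exosome, both positive without the first library after CMG, and from −0.42 to 0.058 for the targets, positive without the second library before or the second after CMG. The DOCA–HS median ranged from −0.41 to 0.0053 for CCR4-NOT and PAN and from −0.68 to 0.064 for the kinases list, both positive without the shallow library. For decapping it ranged from −0.34, without the first library after CMG, to 0.41, and was also negative without the second before it (−0.022). It kept its sign for the exosome (−0.48 to −0.26) and the targets (−1.17 to −0.24). For the other proteins that bind AU-rich elements or stem-loops, the AngII median ranged from −0.24 to −0.0085. Their DOCA–HS median ranged from −0.54, without the first library after CMG, to 0.12, and was also negative without the second before it (−0.042). Under total counts the medians were 0.68 and −0.72 for the kinases list and 0.11 and −1.05 for the targets, and 0.33 and −0.71 for these other binding proteins.

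**Figure D5:**
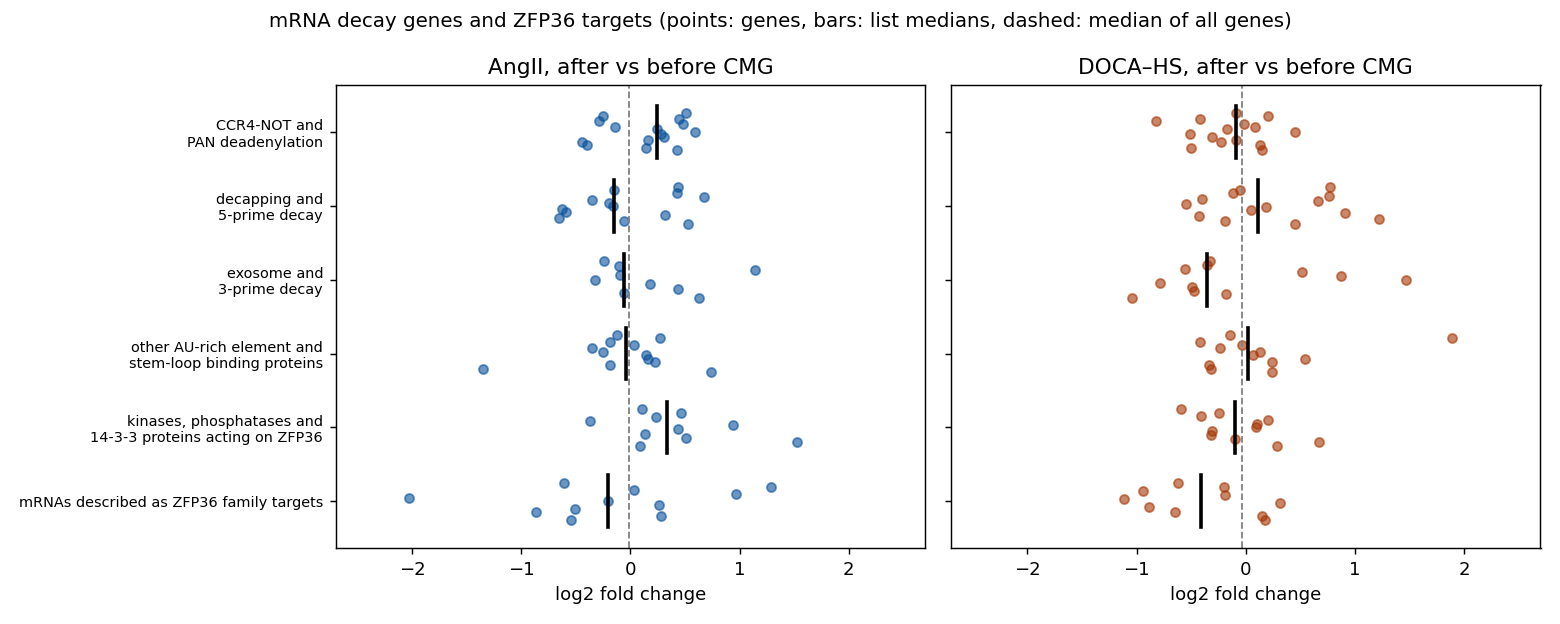
Log2 fold change after against before CMG of the tested genes of 6 lists, in the AngII model (left) and the DOCA–HS model (right). Points are genes, black bars the medians of the lists, and dashed lines the median of all genes, which was −0.01 and −0.04. The point farthest to the left is Cxcl2 at −2.02 and the one farthest to the right is Elavl1 at 1.89.

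Markers of blood cell types moved beside these values, and their part in the results was not tested. The summed level of 10 NK cell markers was 49.5 to 52.7 normalized CPM before and 92.9 to 100.9 after CMG in the AngII model. Of these 9 were tested there, and Gzma, Klrb1a and Tbx21 passed as higher, against 0.903% of all genes. For DOCA–HS the sum was 41.2 to 56.6 before and 62.3 to 85.8 after CMG. Of 9 tested Gzma passed as higher, against 1.79% of all genes. The sum of 14 T cell markers, cells in which Zfp36l2, Btg1 and Tob1 are known to act, was 268 to 290 before and 198 to 258 after CMG for AngII, and 294 to 314 before and 194 to 234 after in the DOCA–HS model. None of the T cell markers was at 0 in 7 libraries, while Cd4, Cd5 and Cd28 were at 0 in the shallow one. Over 9 B cell markers the sum was 272 to 499 before and 249 to 508 after CMG for AngII, and 498 to 601 before and 317 to 338 after CMG for DOCA–HS. Over 9 monocyte markers it was 404 to 420 before and 519 to 521 after CMG in the AngII model, and overlapped in the DOCA–HS model. Over 7 platelet markers it was 179 to 646 before and 60.4 to 581 after CMG for AngII. For DOCA–HS the platelet sum was 220 to 307 before and 639 to 959 after CMG, and Pf4 and Treml1 passed as higher. Over 12 neutrophil markers the sums lay between 242 and 275 in the AngII libraries and overlapped between 160 and 506 in the DOCA–HS libraries. Of 10 tested in the DOCA–HS model, Lcn2 and Ngp passed as lower, against 0.259% of all genes, and 3 had a log2 fold change above 0. Their median was −0.54, and 0.58 without the second library before CMG. The erythroid share is given above as hemoglobin counts.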

How the data were processed

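Whole-blood RNA of 8 libraries was analysed, with 2 per group. The authors aligned the reads to rn6 with HISAT2, counted reads per gene with HTSeq in its strand-specific mode, and deposited the raw counts, which are not normalized. They state that hemoglobin annotations were removed before counting, while hemoglobin genes are in the deposited counts. Of the 17446 genes, 5754 had no count. There were 0 columns of other samples.

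The members and lists, and the rules below, were chosen with earlier results of these data known. The authors used DESeq2. Here each comparison was fitted over all genes on its 4 libraries with edgeR 4.0.16 in R 4.3.3 (filterByExpr, TMM, estimateDisp, glmQLFit, glmQLFTest), and the difference between the models on all 8 libraries. Adjusted p-values are Benjamini-Hochberg values over all genes tested. Log2 CPM used a prior count of 2, and the lower limit of detection was 3 counts. Named were the 7 members, for Zfp36l2 and Btg2 the 5 nearest genes, and from the lists each gene past the criterion in either model, or else the most abundant gene. Btg3, Myc, Bcl6, Zc3h12a and the genes nearest over 7 libraries were named after their values were seen. Replicate libraries differed beyond counting error (chi-square divided by its degrees of freedom 11.3 to 26.6). No source says whether replicates came from separate rats, so p-values measure the spread between these libraries, which may be technical.

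Alternatives were DESeq2 1.42.0, its size factors, total counts with and without hemoglobin, limma-voom (limma 3.58.1), the unfiltered table, a minimum of 10 counts per library, a joint fit of all 8 libraries, a replicate block, a log2 threshold of 1, and each library left out in turn. Family shares, list values under other settings and likeness over 7 libraries were added after the values were seen. The scripts were checked on simulated counts. The GRCr8 gene table of RefSeq held 15493 of the gene names. That table also lists pseudogenes of Zfp36l2 and Tob2, between which and the genes the counting could split reads. GRCr8 differs from the authors' build, so its coordinates apply to the printed promoters only.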

Additional observations from a re-analysis of the deposited data

How the results depend on the processing

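The count of members past the criterion changed with the settings. In the AngII model (1 member, Zfp36l2 lower) it was 3 at a log2 threshold of 1, and 1 to 2 with a library left out; the 2 arose without the first library before CMG, where Tob2 also passed (1.57), as did 2.81% of all genes. Under total counts, with or without hemoglobin, the 1 member past the criterion was Tob2 and not Zfp36l2, against 3.08% and 3.31% of all genes. The log2 fold change of Zfp36l2 stayed between −1.93 and −1.33 over 13 settings. In the DOCA–HS model (0 members) the count was 0 to 3 with a library left out; Zfp36, Zfp36l2 and Tob2 passed where the shallow library alone stood for blood after CMG, where 21.1% of all genes passed, and the folds of Zfp36l2 and Tob2, at 0 there, depend on the prior count. Before CMG (0 members) it was 1 with DESeq2 and with its size factors (Zfp36l2, against 0.629% and 0.75% of all genes), 1 under total counts and 1 under total counts outside hemoglobin (Tob2, against 7.48% and 5.72%), and 0 to 1 with a library left out. For the difference between the models (0 members) it was 1 with the replicate block (Tob2, against 5.68%) and 0 to 2 with a library left out.

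Directions changed in the DOCA–HS test for 3 members. Zfp36l1 (0.12) was −0.80 under total counts, −0.38 under total counts outside hemoglobin and −0.21 with a minimum of 10 counts per library, and ranged from −0.095 to 0.41 with a library left out (−0.05 without the shallow one). Over these leave-one-out fits Zfp36l2 ranged from −7.66 to 0.013 and Tob2 from −8.32 to 0.14, with the positive value without the shallow library in each case. The cause was not tested. Signs also changed for AngII in Btg1 (−0.42), at 0.04 and 0.05 under total counts with and without hemoglobin, Zfp36 (0.13), at −0.08 without the second library before CMG and −0.06 without the first after it, and Zfp36l1 (0.40), at −0.08 without the second after it.

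The replicate numbers shared by the groups were not tied to rats by any source, and the deviations of same-numbered libraries correlated at 0.47 for AngII and 0.32 for DOCA–HS, with 2 pairs in each. With the replicate block 1 member passed the criterion for AngII, 0 for DOCA–HS and 0 before CMG. Over all genes, 165, 0 and 1 had an adjusted p under 0.05 (edgeR), and 5 for the difference between the models. Each was 0 without the block. The AngII values are no test of the members.

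Over all genes in the AngII model, 65 passed as higher and 24 as lower, against 210 and 12 under total counts, 225 and 13 under total counts outside hemoglobin, 134 and 67 with no filter, 11 and 11 with at least 10 counts, 98 and 305 without the first library after CMG, and 217 and 54 at a log2 threshold of 1. In the DOCA–HS model, 138 and 20 passed, against 0 and 9, 20 and 12, 225 and 43, 31 and 1, 606 and 1106, and 211 and 34 in the same order. Without the first library before CMG these were 181 and 33 for AngII and 26 and 2 for DOCA–HS, and without the second 98 and 58, and 63 and 5. Before CMG, 32 and 27 passed, against 555 and 4 under total counts, 422 and 5 outside hemoglobin, 81 and 72 with no filter, 2 and 16 with at least 10 counts, and, without AngII library 1, AngII library 2, DOCA–HS library 1 and DOCA–HS library 2, 171 and 52, 104 and 90, 42 and 82, and 58 and 127. For the difference between the models, 180 and 73 passed, against 2 and 30 under total counts, 14 and 150 outside hemoglobin, 433 and 144 with no filter, 30 and 10 with at least 10 counts, 329 and 125 with the block, and from 46 and 26 (without AngII after library 2) to 731 and 1191 (without DOCA–HS after library 1). After TMM scaling, 3 counts correspond to 2.11 CPM in the shallow library and to 0.166 to 0.507 in the others, so lower levels can give no count in it.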
